A study of Mus musculus with 18 samples.

Results

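*Npy*, which encodes neuropeptide Y (NPY), and the genes of its Y1, Y2 and Y5 receptors, *Npy1r*, *Npy2r* and *Npy5r*, were followed in mouse dorsal root ganglia (DRG), the ganglia that hold the cell bodies of sensory neurons. They are 4 of 18193 genes measured, and the arrays read them with 6 probe sets, each a group of short probes for 1 transcript. The genes were chosen knowing that *Npy1r* moved in opposite directions in Nav1.7 KO and Nav1.9 KO DRG. Their values in those lines are therefore a description and carry no test, and only the Nav1.8 line was tested.

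NPY is a peptide transmitter of sympathetic nerves and of many neurons of the central nervous system. Its receptors couple to inhibitory Gi/o proteins, which lower cyclic AMP, reduce calcium entry and open potassium channels, so that they dampen transmitter release. Intact DRG contain little NPY, while NPY is well known to appear in sensory neurons of rodents after their axons are cut. The Y1 receptor is best known from small peptidergic sensory neurons, and the Y2 receptor sits on the endings of other sensory neurons.

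The study compared whole DRG of all spinal levels from 3 lines of adult mice, for which its methods name both sexes. Each line was without 1 of the sodium channels that carry the electrical signals of sensory neurons. In Nav1.7 KO mice a floxed *Scn9a* was deleted from sensory neurons with Advillin-Cre, which uses the gene *Avil*. The Nav1.8 KO was a global null mutant of *Scn10a*, and the Nav1.9 KO of *Scn11a*. Each KO group had 3 arrays and was set against 3 arrays of littermates of its own line, which the titles call WT, 18 arrays in 6 groups. Strain, and whether the littermates of the Nav1.7 line carried floxed alleles or Cre, are not given in the sources used here. Whether each array held RNA of 1 animal is not stated, so that p-values measure only the spread between these arrays. No agent was given to any group.

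*Npy1r* and *Npy5r* lie next to each other on chromosome 8 on opposite strands. Their starts are 9328 bases apart, with 0 other annotated genes between them, while *Npy* lies on chromosome 6 and *Npy2r* on chromosome 3. The 250 bases before the start of *Npy* (chr6:49822460-49822709, plus strand), *Npy1r* (chr8:66697172-66697421, plus strand) and *Npy5r* (chr8:66688095-66688344, minus strand) are printed from RefSeq on GRCm38.p6, because these are the members whose KO and littermate arrays separated in at least 1 line. Capitals mark matches to 5 motifs searched on both strands.
Npy: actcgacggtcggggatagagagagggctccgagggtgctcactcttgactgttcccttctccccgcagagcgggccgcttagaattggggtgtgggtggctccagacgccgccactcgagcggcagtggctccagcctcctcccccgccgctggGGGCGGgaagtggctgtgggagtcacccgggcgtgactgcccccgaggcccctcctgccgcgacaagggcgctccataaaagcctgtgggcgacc
Npy1r: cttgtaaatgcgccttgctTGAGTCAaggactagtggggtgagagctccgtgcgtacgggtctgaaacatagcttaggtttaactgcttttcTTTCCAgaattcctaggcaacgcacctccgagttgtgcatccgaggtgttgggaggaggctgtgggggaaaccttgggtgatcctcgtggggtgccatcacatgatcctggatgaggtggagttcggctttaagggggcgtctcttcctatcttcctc
Npy5r: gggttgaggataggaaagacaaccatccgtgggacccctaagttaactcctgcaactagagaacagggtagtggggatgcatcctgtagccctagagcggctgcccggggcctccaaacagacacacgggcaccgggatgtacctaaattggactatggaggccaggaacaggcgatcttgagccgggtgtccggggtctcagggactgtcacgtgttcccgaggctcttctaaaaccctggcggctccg
The *Npy* window held the GC box letters GGGCGG once, 95 bases before the start, as did 32.7% of 32851 windows of this length before gene starts. The *Npy1r* window held the AP-1 letters TGANTCA 231 bases before the start (6.75% of windows hold them) and, on the opposite strand, TGGAAA 158 bases before it (18.6% of windows), the core letters of sites of NFAT factors. TGACG, the short form of the cyclic AMP response element, and TATAAA were in none of the 3 windows, against 17.8% and 12.4% of all windows, and the *Npy5r* window held none of the 5. A match describes these letters only.

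All values are log2 intensities as the authors deposited them, and levels of different probe sets cannot be set against each other. Array medians lay between 6.33 and 6.36. Of the targeted genes, *Scn10a* was 2.98-fold lower in Nav1.8 KO DRG (adjusted p = 5.4e-05 from limma) and *Scn11a* fell by 1.85 on the log2 scale in Nav1.9 KO DRG (adjusted p = 7.13e-07), but *Scn9a* had a log2 fold change of -0.06 in the Nav1.7 KO arrays (adjusted p = 0.642), and a probe set outside the deleted exons, whose place is not known here, would not check that label. The Cre locus *Avil* fell by 0.64 on the log2 scale in the Nav1.7 KO arrays (adjusted p = 8.03e-08), and Cre under *Avil* cannot be told apart from loss of Nav1.7. *Xist*, the RNA of the silenced X chromosome, was high in 7 arrays, which were Nav1.7 KO replicates 1 and 3, the 3 Nav1.7 littermates and Nav1.8 KO replicates 2 and 3. All arrays of the Nav1.9 line were thus *Xist*-low. In the Nav1.8 line no littermate was *Xist*-high, so sex and genotype cannot be fully told apart there.

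The peptide gene itself, *Npy*, was lower in Nav1.9 KO DRG and differed little in Nav1.7 KO DRG. In the Nav1.9 line, *Npy* was 6.24, 5.77 and 5.64 in the KO arrays, against 8.08, 6.84 and 7.16 in littermate arrays. Every KO array lay below every littermate array, and the lowest littermate stood 0.605 above the highest KO. The log2 fold change was -1.48 (standard error 0.237), a 2.79-fold lower mean, and between -1.74 and -1.12 with single arrays left out. In bulk tissue, fewer cells of a type and less RNA per cell cannot be told apart.

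The wide side of this difference was the littermates. *Npy* in Nav1.9 littermates (7.36 ± 0.642, SD, n = 3 arrays) exceeded the 6 littermates of the Nav1.7 and Nav1.8 lines, which ran from 5.34 to 6.31. The Nav1.9 KO arrays (5.88 ± 0.315, SD, n = 3 arrays) lay inside that range. Littermate replicate 1, at 8.08, was the highest of all 18 arrays, and without it the log2 fold change was -1.12. Littermates of the Nav1.7 line were *Xist*-high and those of the other lines *Xist*-low, and strain and normalization between arrays are not known. Line and these features cannot be told apart, and what set the littermates of the lines apart was not tested.

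In the Nav1.8 line, *Npy* was 5.64, 5.35 and 5.74 in the KO arrays, against 6.30, 6.03 and 6.31 in littermate arrays. The KO arrays again lay below all littermate arrays, with a gap of 0.290. The log2 fold change was -0.64 (95% interval -1.14 to -0.13, a 1.55-fold lower mean) and did not pass the threshold (adjusted p = 0.538 over all genes by limma, unadjusted p = 0.0166). By the brightest probe set, *Npy* was the only member whose KO arrays all lay below the littermates in this line, 1 of 4, where 9.02% of all genes did so.

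In the Nav1.7 line, *Npy* was 5.86, 5.78 and 5.52 in the KO arrays, against 5.34, 5.67 and 5.54 in littermate arrays. The groups overlapped, and the log2 fold change was 0.20 (standard error 0.237). Both groups sat at the low end of the range of *Npy*, near Nav1.8 KO and Nav1.9 KO DRG. By mean, the order from high to low was Nav1.9 littermates, Nav1.8 littermates (6.21), Nav1.9 KO (5.88), Nav1.7 KO (5.72), Nav1.8 KO (5.58) and Nav1.7 littermates (5.52), and the first group stood apart while each of the other 5 overlapped with its neighbours among them.

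**Figure D1:**
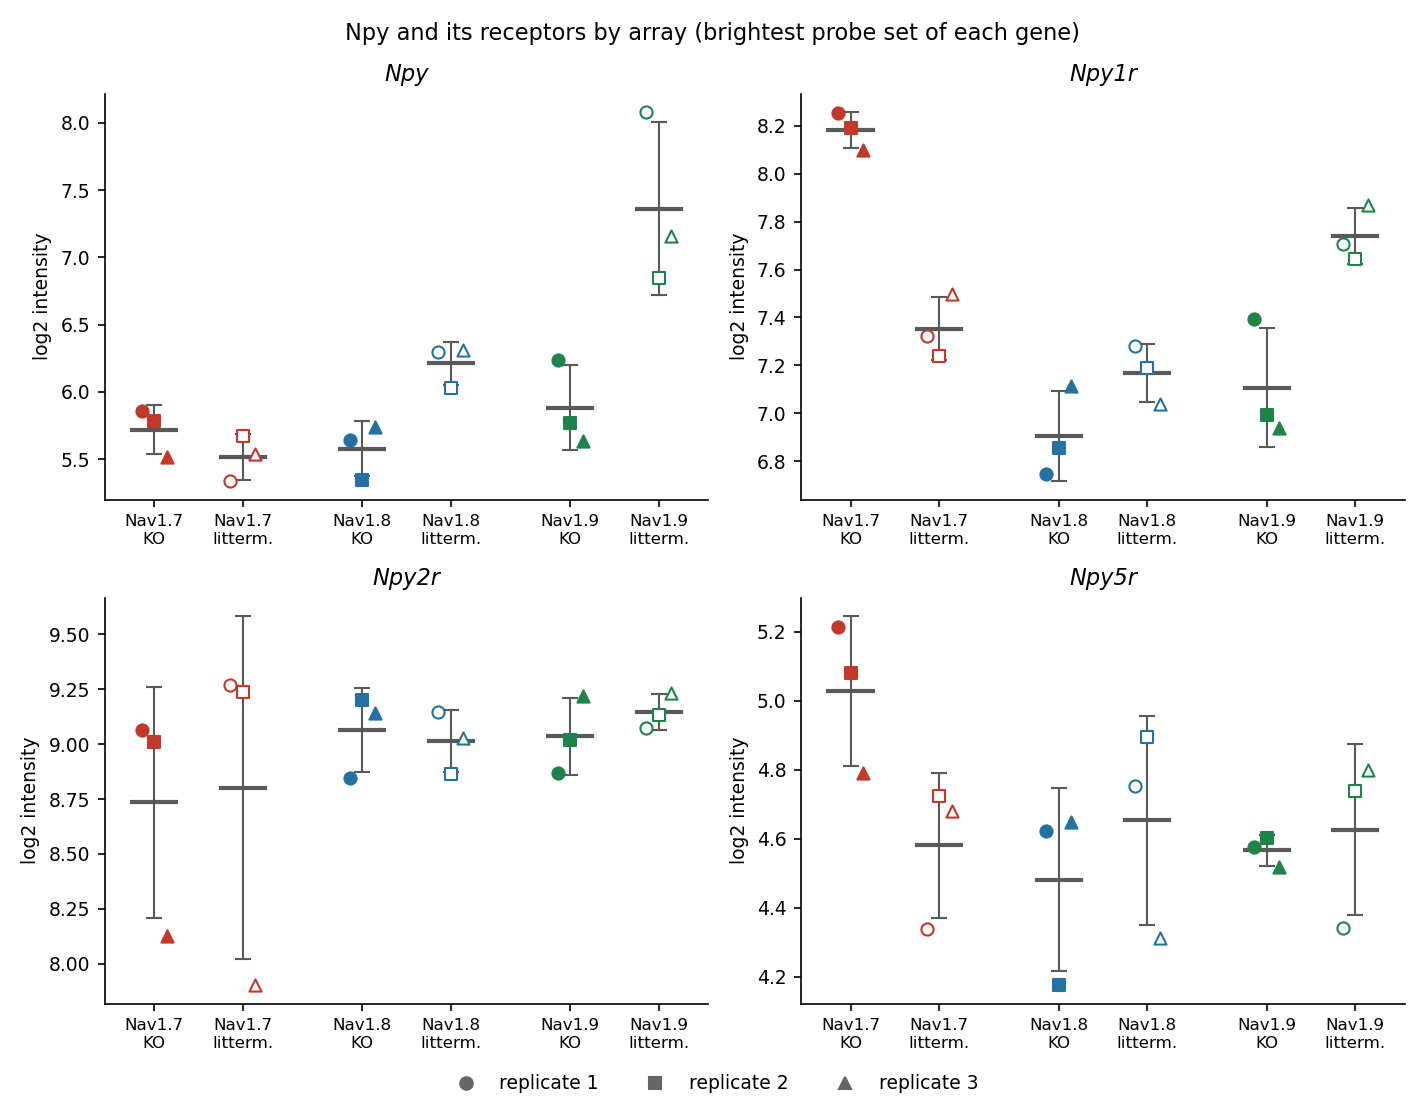
Log2 intensity (vertical axis) of *Npy*, *Npy1r*, *Npy2r* and *Npy5r* in each of the 18 arrays, with KO groups (filled) left of their littermates (open, "litterm."). Marker shapes give the replicate, and bars give the group mean and SD (n = 3 arrays). *Npy1r* stands above all other arrays in Nav1.7 KO DRG (8.10 to 8.25), *Npy* is high in Nav1.9 littermates, and *Npy2r* is low in replicate 3 of the Nav1.7 line.

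*Npy1r*, the Y1 receptor gene, was higher in Nav1.7 KO DRG and lower in Nav1.9 KO DRG. In the Nav1.7 line it was 8.25, 8.19 and 8.10 in the KO arrays, against 7.32, 7.24 and 7.50 in littermate arrays. The 3 KO arrays lay above all other 15 arrays, which ran from 6.75 to 7.87. The log2 fold change was 0.83 (standard error 0.117), a 1.77-fold higher mean, and the direction follows the sample titles, whereas the study lists this gene in the opposite direction for Nav1.7. Among the KO arrays, replicate 2 was the *Xist*-low one and had 8.19, between the *Xist*-high arrays, and with the *Xist* class as a term the log2 fold change was 0.86.

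In the Nav1.9 line, *Npy1r* was 7.39, 6.99 and 6.94 in the KO arrays, against 7.70, 7.64 and 7.87 in littermate arrays. Every KO array lay below every littermate array, by at least 0.253. This is a log2 fold change of -0.63 (standard error 0.117), a 1.55-fold lower mean. As for *Npy*, the Nav1.9 littermates stood above the 6 littermates of the other lines (7.04 to 7.50), while the KO arrays overlapped with that range. The limit given for *Npy* on comparing littermates of different lines holds here too.

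In the Nav1.8 line, *Npy1r* was 6.75, 6.85 and 7.12 in the KO arrays, against 7.28, 7.19 and 7.04 in littermate arrays. KO replicate 3 lay above littermate replicate 3, so the groups overlapped. Its log2 fold change of -0.26 (95% interval -0.51 to -0.01) did not pass (adjusted p = 0.589 by limma, unadjusted p = 0.0395). By mean, the order was Nav1.7 KO (8.18), Nav1.9 littermates (7.74), Nav1.7 littermates (7.35), Nav1.8 littermates (7.17), Nav1.9 KO (7.11) and Nav1.8 KO (6.91). Nav1.7 littermates, Nav1.8 littermates, Nav1.9 KO and Nav1.8 KO overlapped with their neighbours in that order, while the first 2 groups stood apart.

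The second probe set of *Npy1r* is dim, at the 18.9th percentile of brightness over all probe sets, where the first is at the 63.3rd. It gave log2 fold changes of 0.15 in the Nav1.7 line, -0.09 in the Nav1.8 line and -0.03 in the Nav1.9 line (standard error 0.0902 each). The signs were those of the brighter probe set, but the sizes were far smaller. The Nav1.7 and Nav1.9 groups overlapped, while the Nav1.8 KO arrays lay below the littermates by 0.0365 (adjusted p = 0.839 by limma). No detection calls were at hand, so the signal over background of the dim probe sets is not known.

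*Npy5r*, the gene of the Y5 receptor, which is transcribed away from its neighbour *Npy1r*, was also higher in Nav1.7 KO DRG. It was 5.22, 5.08 and 4.79 in the Nav1.7 KO arrays, against 4.34, 4.72 and 4.68 in littermate arrays. The KO arrays lay above the littermate arrays, but KO replicate 3 only by 0.0667. This is a log2 fold change of 0.45 (standard error 0.168), a 1.36-fold higher mean. *Npy1r* and *Npy5r* were thus 2 of 4 members with all KO arrays above the littermates in the Nav1.7 line, where 10.8% of all genes had this, and *Npy* and *Npy1r* were 2 of 4 with all KO arrays below in the Nav1.9 line, where 9.29% had it. Nothing is read from these counts, since the members were chosen on these lines.

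In the other lines *Npy5r* stayed within overlapping ranges. It was 4.62, 4.17 and 4.65 in Nav1.8 KO arrays, against 4.75, 4.89 and 4.31 in littermate arrays (log2 fold change -0.17, 95% interval -0.53 to 0.19, adjusted p = 0.833 by limma). In the Nav1.9 line it was 4.58, 4.60 and 4.52 in KO arrays, against 4.34, 4.74 and 4.80 in littermate arrays (log2 fold change -0.06). Both probe sets of *Npy5r* are dim, at the 23.3rd and 22.2nd percentile of brightness. The dimmer gave log2 fold changes of 0.20 in the Nav1.7 line, -0.12 in the Nav1.8 line and -0.03 in the Nav1.9 line (standard error 0.122 each), with overlapping groups in all lines.

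*Npy2r*, the gene of the Y2 receptor, is read by 1 probe set at the 79.9th percentile of brightness and differed little by genotype. In the Nav1.7 line it was 9.06, 9.01 and 8.13 in the KO arrays, against 9.27, 9.23 and 7.90 in littermate arrays. Replicate 3 was low in both groups, below all other 16 arrays, which ran from 8.84 to 9.27. The log2 fold change was -0.07 (standard error 0.292), but 0.24 without KO replicate 3, -0.52 without littermate replicate 3, and -0.21 without both, so its direction rests on those arrays.

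In the Nav1.8 line, *Npy2r* was 8.84, 9.20 and 9.14 in the KO arrays, against 9.14, 8.87 and 9.03 in littermate arrays (log2 fold change 0.05, 95% interval -0.57 to 0.67, adjusted p = 0.980 by limma). In the Nav1.9 line it was 8.87, 9.02 and 9.22 in the KO arrays, against 9.07, 9.13 and 9.23 in littermate arrays (log2 fold change -0.11). The groups overlapped in all 3 lines. Replicate 3 of the Nav1.7 line enters the shared estimate of the spread behind these values.

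Tested over all genes in the Nav1.8 line, 0 of 4 members passed an adjusted p of 0.05 by limma, and 2 of 4, *Npy* and *Npy1r*, had an unadjusted p under 0.05, as did 8.09% of all genes. Few genes passed the adjusted threshold in this line, 3 of 18193 or 0.0165%. With 3 arrays per group, the smallest two-sided p of an exact permutation test is 0.1.

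**Figure D2:**
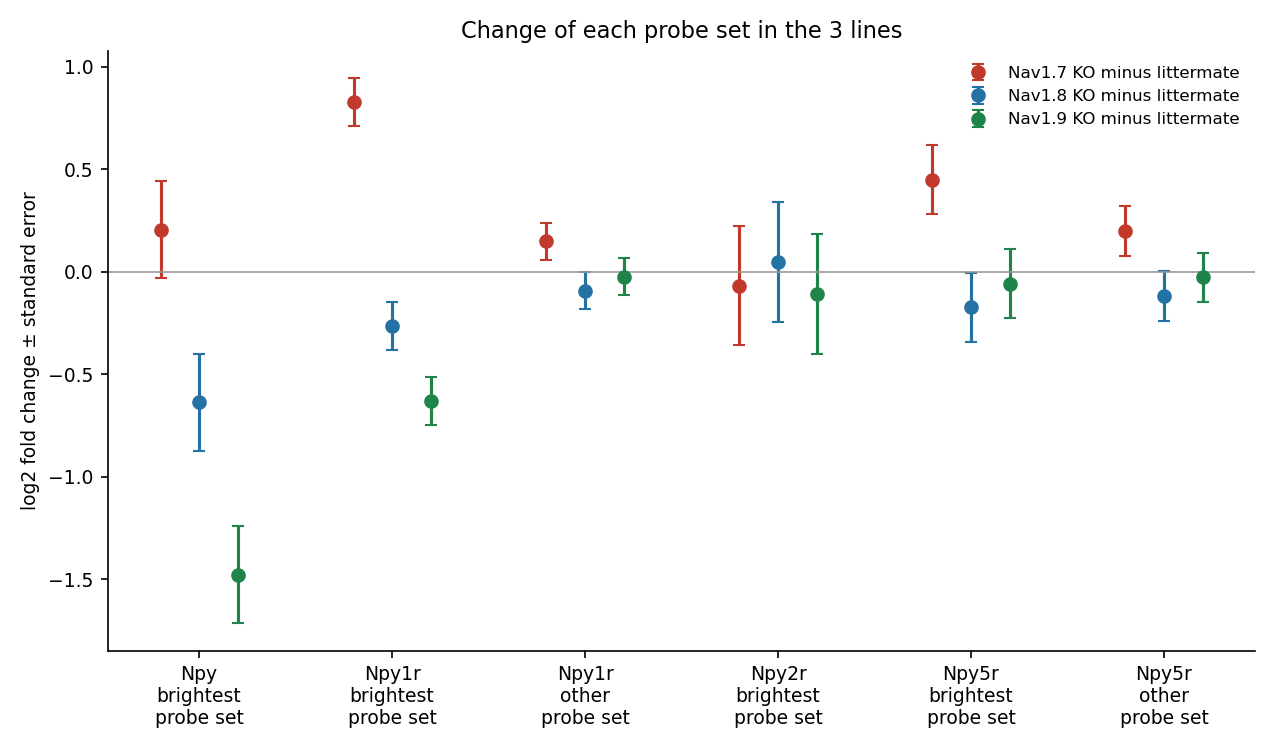
Log2 fold change, KO minus littermate, of each of the 6 probe sets in the Nav1.7, Nav1.8 and Nav1.9 lines (vertical axis), with bars for the standard error of the limma fit (n = 3 arrays per group). The brightest *Npy1r* probe set runs from 0.83 in the Nav1.7 line to -0.63 in the Nav1.9 line, and the dimmer one keeps the signs at a smaller size.

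Other genes of the NPY family and of NPY processing did not pass the test. Of 6 other measured genes of the NPY and NPFF family, 0 passed the test in any line, with 1, 1 and 0 at an unadjusted p under 0.05 in the Nav1.7, Nav1.8 and Nav1.9 lines (limma). They include *Pyy*, the gene of the related gut peptide YY, at log2 fold changes of -0.13, 0.08 and 0.01, and *Npy4r*, the gene of the Y4 receptor, at 0.01, 0.19 and 0.05 in the same order. Of 9 genes that process or break down NPY, among them *Pcsk1*, a convertase that cuts peptide precursors, and *Dpp4*, a peptidase that trims NPY, 0 passed in any line, with 0, 2 and 1 at an unadjusted p under 0.05. The median log2 fold changes of these lists lay between 0.00 and 0.09, and those of all genes between -0.01 and 0.01.

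Among 26 genes of Gi/o signalling, through which NPY receptors act, 1 rose and 1 fell in Nav1.7 KO DRG (4.33% of all genes were called there). In Nav1.8 KO and Nav1.9 KO DRG 0 passed. At an unadjusted p under 0.05 (limma) there were 8, 3 and 2 in the Nav1.7, Nav1.8 and Nav1.9 lines. The share of all genes at that threshold is at hand only for the Nav1.8 line, 8.09%. Such counts in the Nav1.7 and Nav1.9 lines are therefore not read for any set of genes in this report. The median log2 fold change of the list in the Nav1.7 line was 0.07, against 0.01 over all genes. *Adcy8*, an adenylyl cyclase that makes cyclic AMP, averaged 7.46 ± 0.0788 in KO arrays of the Nav1.7 line and 6.98 ± 0.0253 in littermate arrays (SD, n = 3 each), 1.39-fold higher in KO (adjusted p = 0.00869 from limma). *Grk3*, a kinase that desensitizes receptors of this kind, averaged 9.01 ± 0.0166 in the same KO arrays and 9.46 ± 0.0345 in littermate arrays (SD, n = 3 each), 1.37-fold lower in KO (adjusted p = 1.2e-05). Both passed without each single array of the line. The G protein subunits, the potassium channels and the calcium channels of the list did not pass.

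Because NPY is known from injured sensory neurons, genes of nerve injury were set beside it. Of 20 measured nerve injury genes, 7 fell and 0 rose in Nav1.9 KO DRG (0.473% of all genes were called), and 4 rose and 0 fell in Nav1.7 KO DRG. In Nav1.8 KO DRG 0 passed, with 8 at an unadjusted p under 0.05 (limma). The medians of the list were 0.31 in the Nav1.7 line, -0.16 in the Nav1.8 line and -0.46 in the Nav1.9 line, against 0.01, -0.01 and 0.00 over all genes. The list was chosen with earlier results of these arrays known, and is no independent evidence of its direction.

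In Nav1.9 KO DRG, *Sprr1a*, a growth-associated gene of injured neurons, was 9.19-fold lower (adjusted p = 0.00554 from limma) and *Atf3*, a transcription factor switched on by axon damage, 3.57-fold lower (adjusted p = 0.00711). *Flrt3*, a membrane protein of growing neurons, was 1.50-fold lower (adjusted p = 0.00972) and *Jun*, an AP-1 subunit, 1.34-fold lower (adjusted p = 0.0121). *Atf3* and *Sprr1a*, like *Npy*, varied more among the littermates than among the KO arrays. *Atf3* was 7.89, 7.59 and 7.74 in Nav1.9 KO arrays, against 10.35, 8.97 and 9.41 in littermate arrays, and *Sprr1a* was 6.08, 5.69 and 5.51 in Nav1.9 KO arrays, against 10.40, 7.77 and 8.70. Littermate replicate 1 was the highest of these arrays for *Npy*, *Atf3* and *Sprr1a* alike. The part of this injury profile in the level of *Npy* was not tested. Calls in the list numbered 3 without littermate replicate 1, 4 without KO replicate 2 and 11 without littermate replicate 2, and *Jun* lost its call without littermate replicate 1 or KO replicate 2, while *Sprr1a*, *Atf3* and *Flrt3* kept theirs.

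The 4 that rose in Nav1.7 KO DRG were *Jun* (1.33-fold, adjusted p = 0.00256 from limma), *Flrt3* (1.30-fold, adjusted p = 0.0223), *Bdnf*, a neurotrophin (1.49-fold, adjusted p = 0.0224) and *Smad1*, a factor of BMP signalling (1.13-fold, adjusted p = 0.0350). *Atf3* did not pass there (log2 fold change 0.58, adjusted p = 0.300). *Jun* passed without each single array, *Flrt3* lost its call without KO replicate 2 or any littermate, *Bdnf* without KO replicate 3 or littermate replicate 1 or 3, and *Smad1* without any of the 6 arrays. Calls in the list numbered 1 without littermate replicate 1 or 3, and 2 without KO replicate 2, KO replicate 3 or littermate replicate 2. *Npy*, at 0.20, moved little in the line where these genes rose.

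Of 12 other peptides and receptors that respond to axotomy in DRG, 3 fell in Nav1.9 KO DRG, 1 rose in Nav1.7 KO DRG and 0 passed in Nav1.8 KO DRG (4 at an unadjusted p under 0.05, limma). *Vgf*, which encodes a secreted neuropeptide precursor, was 1.93-fold lower in Nav1.9 KO DRG (adjusted p = 0.00311), *Gpr151*, an orphan receptor, 3.04-fold lower (adjusted p = 0.0222) and *Cckbr*, a cholecystokinin receptor, 2.10-fold lower (adjusted p = 0.0326). *Vgf* passed without each single array, *Gpr151* not without any of the KO arrays, and *Cckbr* only without littermate replicate 2. *Adcyap1*, the gene of the peptide PACAP, was 1.24-fold higher in KO arrays of the Nav1.7 line (adjusted p = 0.0316) but lost its call without any of the 6 arrays. *Gal*, the gene of galanin, did not pass in any line (log2 fold changes -0.02, -0.41 and -0.33).

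**Figure D3:**
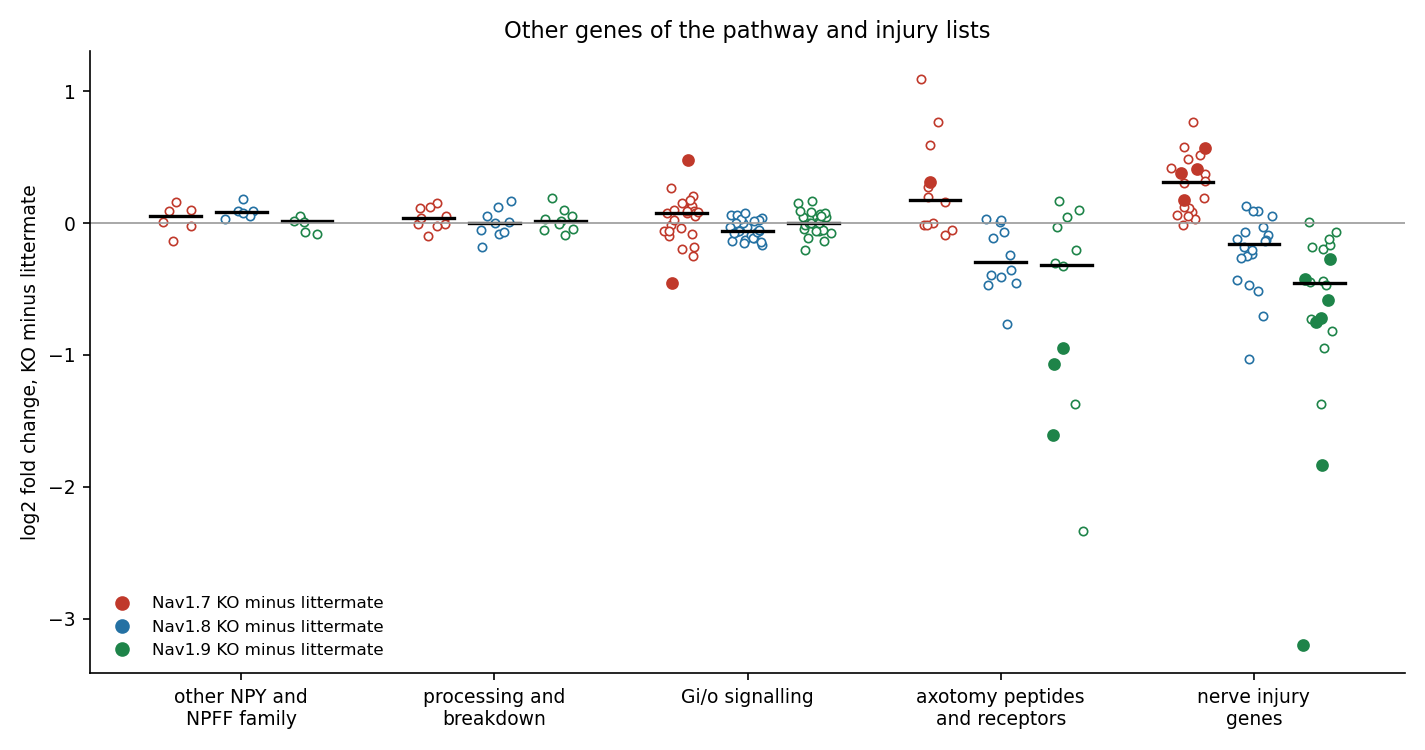
Log2 fold change, KO minus littermate (vertical axis), of each measured gene of 5 lists other than the members, in the Nav1.7, Nav1.8 and Nav1.9 lines from left to right within each list. Filled points passed an adjusted p of 0.05 (limma) and lines give the list medians. The medians of the family, processing and signalling lists stay near 0, with *Adcy8* and *Grk3* of the signalling list called in the Nav1.7 line, and the nerve injury list has medians of 0.31, -0.16 and -0.46.

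Markers of the cells that could hold the members were read on the same arrays. Of 9 measured markers of peptidergic nociceptors, the neurons in which the Y1 receptor is best known, 4 rose in Nav1.7 KO DRG and 0 passed in Nav1.8 KO or Nav1.9 KO DRG (5 at an unadjusted p under 0.05 in each). *Trpv1*, the capsaicin receptor gene, was 1.53-fold higher (adjusted p = 3.87e-06 from limma), *Tac1*, the substance P precursor gene, 1.29-fold higher (adjusted p = 9.68e-06), *Gfra3*, the artemin receptor gene, 1.26-fold higher (adjusted p = 0.0192), and *Adcyap1* stood in this list too. The log2 fold changes of 3 of the 9 were below 0, at -0.13 for *Calcb*, a gene of the peptide CGRP (adjusted p = 0.0623, no overlap), -0.06 for *Bmpr1b* and -0.01 for *Kit*. *Trpv1* and *Tac1* passed without each single array, *Gfra3* only without KO replicate 3, and the list held 2 calls without KO replicate 2 or any littermate. The mean level of the list ran from 10.45 to 10.51 in Nav1.7 KO arrays, against 10.24 to 10.26 in littermate arrays, from 10.20 to 10.30 in Nav1.8 KO arrays, against 10.36 to 10.47, and from 10.29 to 10.37 in Nav1.9 KO arrays, against 10.46 to 10.51. The mean of the list, though not each of its genes, thus differed in the direction of *Npy1r* in each line, with no overlap. This is not particular to these markers, since the means of the nerve injury and axotomy lists did the same in each line. The nerve injury list, for example, ran from 9.34 to 9.47 in Nav1.7 KO arrays, against 9.05 to 9.17 in littermate arrays. The part of any of these lists in the values of *Npy1r* was not tested.

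Markers of sympathetic neurons, the classic source of NPY, were set beside *Npy* too. *Dbh*, the enzyme that makes noradrenaline, ran from 7.31 to 7.59 over all 18 arrays, and *Slc6a2*, the noradrenaline transporter, from 5.80 to 6.34, and the log2 fold changes in the Nav1.9 line were 0.08 and 0.08. Of 11 measured sympathetic markers, 1 rose in Nav1.9 KO DRG, *Hand2* (1.17-fold, adjusted p = 0.0436 from limma, called otherwise only without littermate replicate 3), and 1 fell in Nav1.7 KO DRG. That was *Th*, which some sensory neurons use too, 4.80-fold lower (adjusted p = 6.46e-09). The mean level of the list ran from 6.43 to 6.53 in Nav1.9 KO arrays, against 6.37 to 6.40 in littermate arrays, opposite in direction to *Npy*. With *Th* in it, it ran from 6.13 to 6.26 in Nav1.7 KO arrays, against 6.35 to 6.45 in littermate arrays, and it overlapped in the Nav1.8 line. *Slc6a2*, *Hand2* and several others of the list averaged below 6.73, the 40th percentile over genes, so a change in them could pass unseen. The part of sympathetic neurons in the level of *Npy* was not tested.

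Of the other cells, macrophages had 1 of 12 markers higher in Nav1.7 KO DRG, *Adgre1* (1.29-fold, adjusted p = 0.0285 from limma, lost without KO replicates 2 or 3 or littermate replicates 2 or 3), and satellite glia had 1 of 10, *Fabp7* (1.28-fold, adjusted p = 0.0175, lost without KO replicates 1 or 2 or littermate replicate 3). Vascular cells, Schwann cells and spinal cord had 0 calls in any line, with 5, 0 and 1 markers at an unadjusted p under 0.05 (limma) in the Nav1.7 line. The macrophage list averaged 7.23 to 7.61 in Nav1.7 KO arrays, against 6.83 to 7.16 in littermate arrays, with no overlap. Its median log2 fold change in that line was 0.37, against 0.01 over all genes, and 7 of its 12 markers had an unadjusted p under 0.05 (limma). Of 12 pan-neuronal markers, the calls were *Avil* in Nav1.7 KO DRG and *Scn10a* in Nav1.8 KO DRG, both lower, with 7, 2 and 0 at an unadjusted p under 0.05 in the Nav1.7, Nav1.8 and Nav1.9 lines. The mean level of this list, with those genes in it, ran from 12.32 to 12.35 in Nav1.7 KO arrays, against 12.47 to 12.49 in littermate arrays. In the Nav1.8 line it ran from 12.27 to 12.31 in KO arrays, against 12.40 to 12.45, and in the Nav1.9 line it overlapped. *Scn10a* is the gene deleted in the Nav1.8 line and *Avil* the Cre locus of the Nav1.7 line. The lower means thus follow in part from the makeup of the list and are no measure of neuron content. The median log2 fold changes of the list were -0.09, -0.01 and -0.03 in the Nav1.7, Nav1.8 and Nav1.9 lines, against 0.01, -0.01 and 0.00 over all genes. The part of these cells in the values of the members was not tested.

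For each member, the 5 genes with the most similar pattern were taken by Pearson's r of log2 values over the 18 arrays, among 10915 genes with a mean at or above the 40th percentile over genes. The arrays share lines and groups, so r is a description, and the genes carry no test. For *Npy*, they were *Atf3* (r = 0.91), *Abcf1* (0.90), *Socs3* (0.89), *Sez6l* (0.89) and *Rhoq* (0.88). *Socs3*, an inhibitor of cytokine signalling, was 1.65-fold lower in Nav1.9 KO DRG like *Atf3*. Without the pair of arrays farthest from the median of *Npy*, Nav1.9 littermate replicates 1 and 3, r was 0.69 for *Atf3*, 0.82 for *Abcf1* and 0.51 for *Rhoq*, so that much of the likeness rests on those arrays. After the mean of each group was taken away, r was 0.56, 0.62, 0.42, 0.67 and 0.77 for the 5 genes in the order given. By Spearman's rank correlation over the 18 arrays, *Abcf1* ranked 7th, *Sez6l* 94th, *Atf3* 158th, *Socs3* 233rd and *Rhoq* 776th.

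For *Npy1r*, the 5 genes were *Slc41a2* (r = 0.94), *Epha5* (0.93), *Bhlhb9* (0.91), *Cpb1* (0.90) and *Kcnv1* (0.90). *Epha5*, an ephrin receptor gene, was 8.81, 9.10 and 8.82 in Nav1.7 KO arrays, against 8.17, 8.13 and 8.13 in littermate arrays. It was 8.02, 8.05 and 7.98 in Nav1.9 KO arrays, against 8.32, 8.29 and 8.37 in littermate arrays, so it was high and low in the same groups as *Npy1r*, without overlap. *Kcnv1*, a silent potassium channel subunit gene, had log2 fold changes of 0.73 in the Nav1.7 line, -0.23 in the Nav1.8 line and -0.21 in the Nav1.9 line. Without Nav1.7 KO replicates 1 and 2, r was 0.91 for *Slc41a2*, 0.91 for *Epha5* and 0.82 for *Kcnv1*. After the mean of each group was taken away, r was 0.48 for *Slc41a2* and 0.20 for *Epha5*, so the likeness lay mainly between groups.

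For *Npy2r*, the genes were *Ada* (r = 0.96), *Il31ra* (0.95), *Nppb* (0.94), *Htr1a* (0.92) and *Ptprk* (0.91), and here the likeness held within groups, at 0.97, 0.98, 0.96, 0.94 and 0.93. *Nppb*, which encodes the itch peptide BNP of sensory neurons, was 9.76, 9.77 and 7.44 in Nav1.7 KO arrays, against 10.01, 10.27 and 7.88 in littermate arrays. *Il31ra*, the gene of the itch receptor for interleukin-31, was 8.62, 8.78 and 7.10 in Nav1.7 KO arrays, against 9.22, 9.42 and 7.23 in littermate arrays. Replicate 3 was low in both groups for these genes, as for *Npy2r*. Without the pair of replicate 3 arrays, r was 0.80 for *Ada*, 0.65 for *Il31ra* and 0.63 for *Nppb*.

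Genes in which replicate 3 of the Nav1.7 line stood apart in both groups by more than 0.5 on the log2 scale numbered 6 lower and 16 higher of 18193, a search made after the values were seen. The 6 lower were *Nppb* (by 1.88), *Il31ra* (1.39), *Npy2r* (0.883), *Ada* (0.848), *Ptprk* (0.596) and *Efcab6* (0.551). Among the higher, the widest gaps were those of *Iglv1* (by 0.906), *Ptgds* (0.785) and *Mt2* (0.676). What set these arrays apart was not tested.

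For *Npy5r*, the genes were *Ncam2* (r = 0.82), *Greb1l* (0.81), *Ppm1h* (0.80), *Lrrc4c* (0.78) and *Plcd1* (0.78), all less like it than the leading genes of the other members. Between members, *Npy1r* and *Npy5r* had r = 0.65 over the 18 arrays, 0.36 after group means were taken away and 0.38 without Nav1.7 KO replicates 1 and 2, the arrays farthest from the median of *Npy1r*. The other 5 pairs had r between -0.24 and 0.28. No p is attached, since the arrays share groups.

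**Figure D4:**
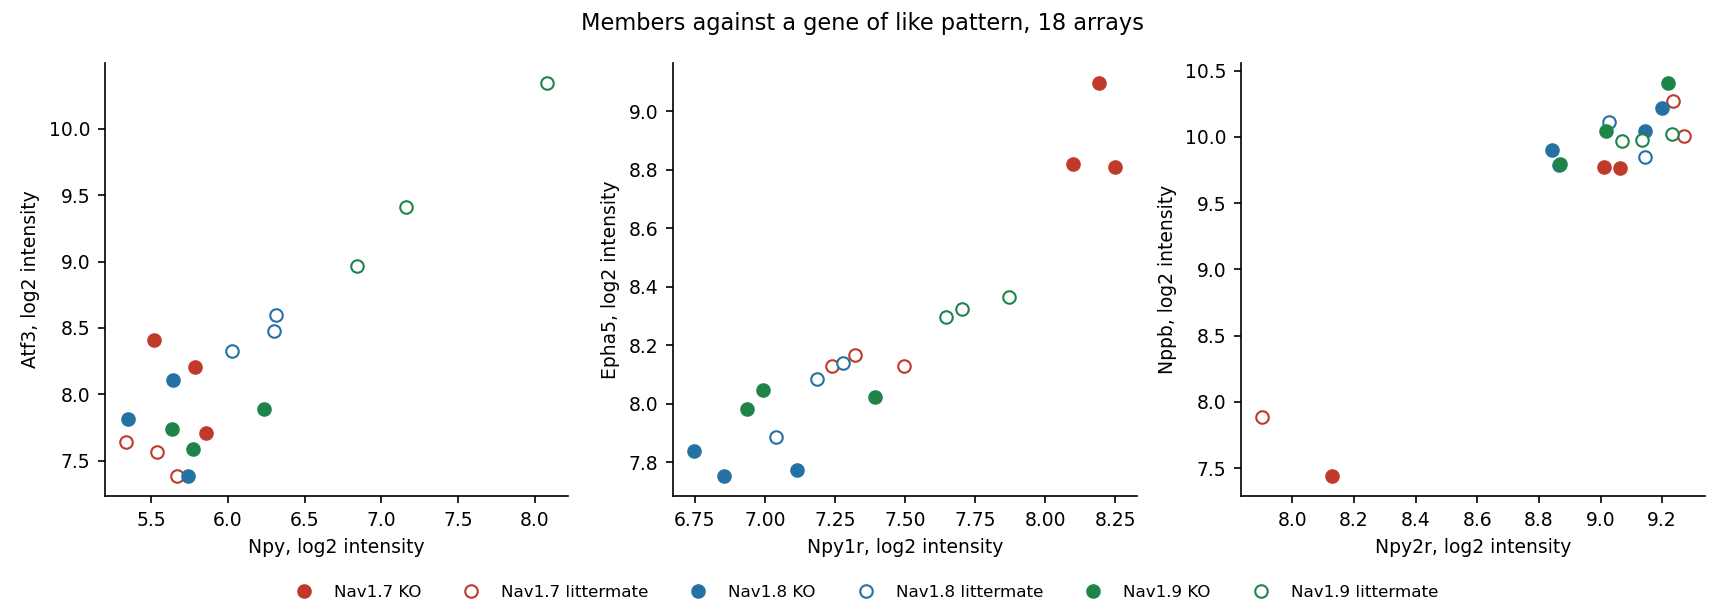
Log2 intensity of *Npy* against *Atf3*, *Npy1r* against *Epha5* and *Npy2r* against *Nppb* in the 18 arrays, each point an array, filled for KO and open for littermates. The Nav1.9 littermates are the highest arrays for *Npy* and *Atf3*, the Nav1.7 KO arrays for *Npy1r* and *Epha5*, and replicate 3 of the Nav1.7 line, KO and littermate, lies alone at the low end for *Npy2r* and *Nppb*.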

How the data were processed

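The deposited table gives each probe set a log2 intensity in each array, made by the authors in Affymetrix Expression Console. The summary method and the normalization between arrays are not given in the sources used here, no detection calls were used, and the log2 scale was inferred from their range. They were used without further scaling. Groups come from the sample titles, since the source names give littermate control throughout.

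Of 45101 probe sets, 64 controls were left out. The platform annotation gives 34945 a single gene symbol and 932 several, and does not list 9160. Symbols were updated through gene numbers with the RefSeq table of GRCm38.p6. Each of 18193 genes was read by its brightest probe set named for it alone, and the dimmer probe sets of members are given beside it.

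The model held all 18 arrays (limma 3.58.1 in R 4.3.3, lmFit and eBayes, 6 group means, 12 residual and 3.44 prior degrees of freedom), with contrasts of KO minus littermate and Benjamini-Hochberg adjustment over all genes at 0.05. The study's methods name no covariates. The fit was tested on simulated data of the same size with 200 changed genes per line.

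Members and lists were chosen with earlier results of these data known. Named genes are the members, the 5 genes of most similar pattern to each, genes of each list past 0.05 (the 4 with the smallest p where more passed), the targeted genes, *Avil* and *Xist*, and all others were named after their values were seen. Promoter windows come from RefSeq on GRCm38.p6. Alternatives were 11 other settings, leaving out each array, and, chosen after seeing the data, replicate 3 of the Nav1.7 line left out in both groups. Figures were drawn with matplotlib 3.10.9.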

Additional observations from a re-analysis of the deposited data

Results flagged for a closer look

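The change of 3 members had opposite signs between lines, which is given as a description only. The difference between lines was not tested, since *Npy1r* was chosen for it. *Npy1r* had a log2 fold change of 0.827 in Nav1.7 KO DRG, -0.263 in Nav1.8 KO DRG and -0.632 in Nav1.9 KO DRG. *Npy* had 0.204, -0.636 and -1.48 in the same order, but its Nav1.7 groups overlapped. *Npy5r* had 0.448, -0.172 and -0.0597, with overlap in the Nav1.8 and Nav1.9 lines and dim probe sets.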

How the results depend on the processing

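Over 11 other settings, 0 members passed in the Nav1.8 line, and adjusted p of the 4 members there ran from 0.289 to 0.998. *Npy1r* kept its sign in each line, but with the mean of all its probe sets its log2 fold change was 0.49 in Nav1.7 KO and -0.33 in Nav1.9 KO DRG, since the dim probe set then counts as much. *Npy* and *Npy5r* are below the 40th percentile over genes and have no value once dim genes are left out. Leaving out single arrays moved *Npy1r* between 0.77 and 0.90 in Nav1.7 KO DRG and between -0.77 and -0.55 in Nav1.9 KO DRG, and *Npy1r* was 0.94 in Nav1.7 KO DRG without replicate 3 in both groups. The sign of *Npy2r* in Nav1.7 and Nav1.8 KO DRG and of *Npy5r* in Nav1.9 KO DRG changed without single arrays.

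Called genes over the whole arrays, which give the background, numbered 787 in the Nav1.7 line, 3 in the Nav1.8 line and 86 in the Nav1.9 line. Fitted alone, the lines had 286, 1 and 8. Called genes in Nav1.9 KO DRG were 154 with array weights, 166 with dim genes left out and 173 with a trend and robust prior. Same-numbered KO and littermate arrays correlated about their group means at -0.01, 0.30 and 0.37 in the Nav1.7 line, 0.11, -0.13 and 0.36 in the Nav1.8 line and 0.03, 0.08 and -0.26 in the Nav1.9 line. These are not over 0.1 for every pair, so the numbers were not used to pair arrays. Even so, KO and littermate replicates 2 and 3 of the Nav1.7 line and replicate 3 of the Nav1.8 line were most like their own number. With the replicate number as a block, called genes were 585, 2 and 38 in the 3 lines, and called nerve injury genes were 1 in the Nav1.7 and 4 in the Nav1.9 line. No member had a call that the block could end. Without single arrays, counts ran from 522 to 799 (522 without littermate replicate 3) in Nav1.7 KO, from 2 to 5 (5 without littermate replicate 3) in Nav1.8 KO and from 39 to 122 in Nav1.9 KO DRG (41 without littermate replicate 1, 39 without littermate replicate 3, and 44, 51 and 56 without KO replicates 1, 2 and 3). The causes were not tested. The number of arrays limits the precision, and what signal over background the dim probe sets have is not known.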
